A study of Schizosaccharomyces pombe with 6 samples.

Results

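The levels of 10 genes of sterol synthesis and of the Sre1 pathway were followed in fission yeast, out of 6986 genes with an identifier of their own in the count table. They are sre1, scp1, hmg1, erg1, erg11, erg25, erg31, erg32, hem13 and ole1, taken by their common names, and each matched 1 gene. The rad24 deletion group held 3 libraries of an h+ rad24∆::NatMX strain, with a drug resistance cassette in place of the gene, and the wild type group held 3 libraries of an h+ strain with rad24 intact. Each genotype was represented by 1 strain number. Both strains grew at 30 °C in the rich medium YES to log phase, and poly(A)+ RNA was sequenced. The labels speak of replicate experiments without saying whether cultures were separate, so p-values measure the spread between these libraries, which may be technical. Rad24 is a 14-3-3 protein, one of a family that binds phosphorylated partners, and the comparison asks how its loss changes the levels of these mRNAs.

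Fission yeast makes ergosterol, its main membrane sterol, by condensing acetyl-CoA into mevalonate, isoprenoid units and squalene, which is then oxidised, cyclised and trimmed. Several of the later steps use molecular oxygen. Sre1 is the yeast SREBP, a transcription factor made as a membrane-bound precursor. Scp1, the yeast SCAP, binds it and is needed for its sterol-regulated cleavage, and when sterols or oxygen run low the Golgi Dsc ubiquitin ligase and the rhomboid protease Rbd2 take part in its cleavage, so that its soluble part can activate genes of sterol and heme synthesis and sre1 itself. Ofd1 speeds the breakdown of that soluble part, and Nro1 inhibits Ofd1.

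Total counts were 21730112, 19396868 and 20000648 in the rad24 deletion libraries, against 15282140, 11539278 and 14560026 in the wild type libraries. Counts of rad24 itself were 27, 39 and 15 in the rad24 deletion libraries, against 22565, 18442 and 21135 in wild type, so each library had the genotype of its label. Levels are given in CPM (counts scaled to a fixed library total) with TMM-scaled library sizes, errors of means are SDs over n = 3 libraries, and every fold change is the rad24 deletion over wild type. The h+ mating type was checked with 4 P-cell and 6 M-cell markers. The P-cell markers summed to 1521 to 1679 CPM in the rad24 deletion and 1468 to 1545 CPM in wild type, and the M-cell markers to 98.1 to 101 CPM in the rad24 deletion and 116 to 129 CPM in wild type. These sums cover changes in both directions. Of the P-cell markers 3 were higher and 1 lower in the rad24 deletion. The receptor gene map3 averaged 243 CPM in the rad24 deletion and 35.6 CPM in wild type (log2 fold change 2.76), and the pheromone gene map2 450.3 CPM in the rad24 deletion and 5.14 CPM in wild type (6.45). The regulator gene map1 averaged 65.0 CPM in the rad24 deletion and 30.7 CPM in wild type (1.07), while the protease gene sxa1, the greatest part of the sum in both genotypes, averaged 836 CPM in the rad24 deletion and 1424 CPM in wild type (-0.77). Of the M-cell markers 4 were higher and 2 lower. The receptor gene mam2 averaged 4.31 CPM in the rad24 deletion and 35.5 CPM in wild type (-3.04), and the M-factor gene mfm2 12.2 CPM in the rad24 deletion and 2.28 CPM in wild type (2.42). The M-factor genes mfm1 and mfm3 averaged 1.75 and 1.62 CPM in the rad24 deletion and 0.312 and 1.00 CPM in wild type, and the call of mfm3 was lost in 5 of the alternatives tried, with adjusted p from 0.0503 to 0.215 (log2 fold change 0.70, and 0.39 without wild type replicate 3). The M-cell transporter gene mam1 averaged 41.8 CPM in the rad24 deletion and 54.5 CPM in wild type. The M-cell carboxypeptidase gene sxa2 averaged 37.4 CPM in the rad24 deletion and 28.6 CPM in wild type. In wild type map1, map2 and map3 were each below mam1. Apart from sxa1, these markers therefore do not settle the mating type of the wild type strain. Whether the shift in mating genes between the genotypes has a part in the values below was not tested.

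The sterol enzyme genes among the 10 members were lower in the rad24 deletion, while the regulator gene sre1 and the fatty acid desaturase gene ole1 were higher. At an edgeR adjusted p below 0.05, 4 members were higher and 6 lower. The background was high, since 40.9% of the 6084 tested genes were called higher, 37.4% lower and 78.3% in either direction. A call alone therefore says little, and the sizes carry the description. At least 2-fold changes were found in 2 members, a rise in ole1 and a fall in erg1, against 7.23% of tested genes that rose and 5.52% that fell by as much. The CPM of the groups did not overlap for any of the 10 members, as was the case for 80.0% of tested genes. The median log2 fold change was -0.39 over the members and 0.022 over all tested genes. All 10 members passed the filter on low counts. With scaling by library size only the median over all tested genes was 0.19, so small falls below are smaller and small rises larger under that scaling, and values that moved by over 1.5 times are given beside each gene group. In bulk RNA, fewer cells that express a gene and less of its RNA per cell cannot be told apart, which holds for every level given here.

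**Figure D1:**
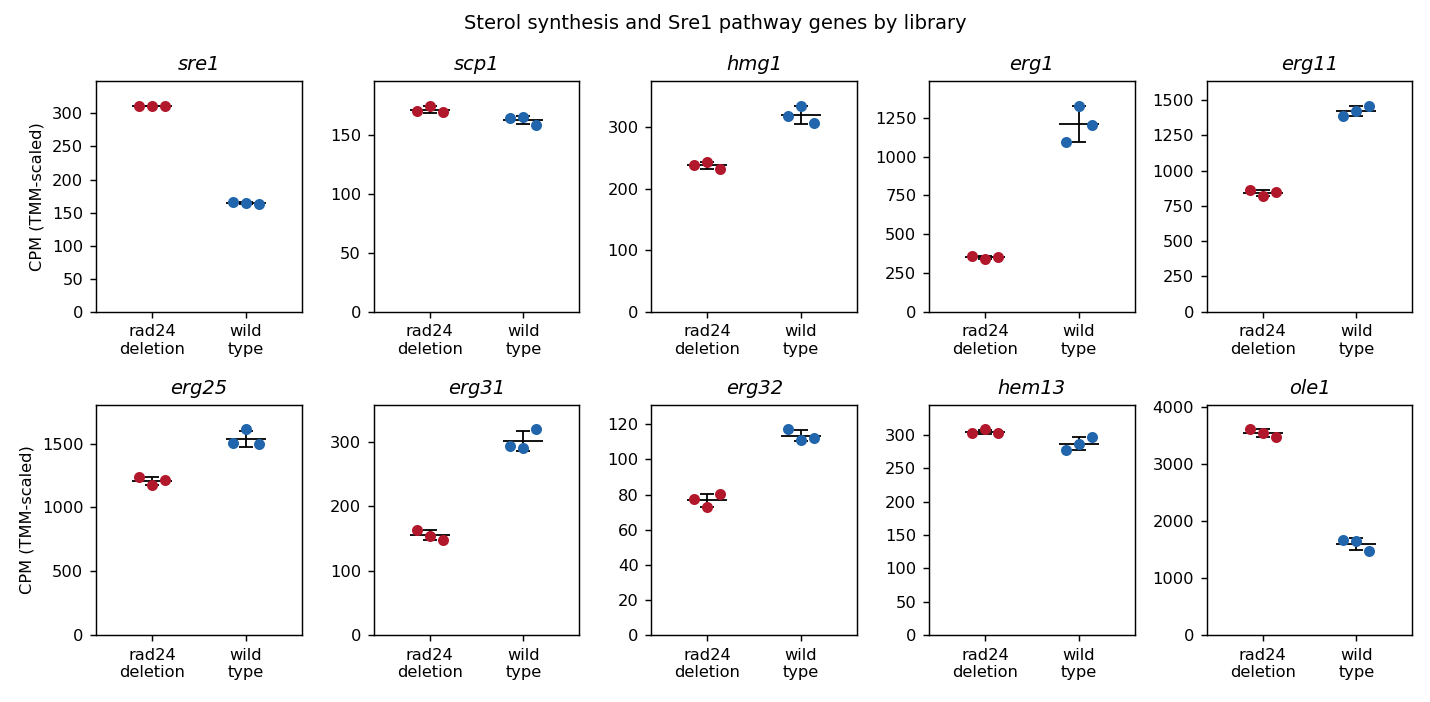
TMM-scaled CPM of the 10 members in each library, with the rad24 deletion (red) left of wild type (blue) in each panel and every axis starting at 0. Points are libraries, and black marks are the mean and SD of 3 libraries. The groups lie farthest apart for erg1, ole1, erg31 and sre1, and nearly meet for scp1 and hem13.

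Among the regulators, sre1 (SPBC19C2.09) rose and scp1 (SPBC3B9.15c) hardly moved. The sre1 mRNA stood at 311, 311 and 312 CPM in the rad24 deletion libraries, against 166, 165 and 163 CPM in wild type. Every rad24 deletion library was above every wild type library by a margin far larger than the spread within either genotype. The SD was 0.144% of the mean in the rad24 deletion and 1.01% in wild type. With 3 libraries an SD this small is only a rough estimate of the spread. The rise was 1.89-fold (log2 fold change 0.92, SE 0.031, edgeR adjusted p = 9.29e-12), and 6.10% of tested protein-coding genes had a higher log2 fold change. For scp1 the levels were 171, 175 and 170 CPM in the rad24 deletion and 164, 165 and 159 CPM in wild type. The groups were apart by a few CPM only, and the log2 fold change was 0.079 (SE 0.031, edgeR adjusted p = 0.0344). This call was lost in 6 of 14 alternatives, with adjusted p = 0.113 with RLE factors, 0.279 with DESeq2, 0.0580 without rad24 deletion replicate 1, 0.129 without rad24 deletion replicate 2, 0.0607 without wild type replicate 1 and 0.149 without wild type replicate 3. Under library size scaling the log2 fold change of scp1 was 0.24, where the median of all genes was 0.19.

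The ratio of sre1 to scp1 counts within a library does not depend on scaling. It was 1.83, 1.78 and 1.84 in the rad24 deletion, against 1.01, 0.999 and 1.03 in wild type. Messages for the precursor and its partner thus changed by unequal amounts, with a difference of 0.84 on the log2 scale. No p is given for this pair, which was chosen after its values were seen.

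The other genes that act on Sre1 were taken from a list of 14 that also holds sre1 and scp1. Of the remaining 12, 7 were higher, 2 lower and 3 not called, where 40.9% of all tested genes were higher and 37.4% lower. The 5 genes of the Dsc ligase, which the cleavage of the Sre1 precursor requires, were all on the higher side. Of these dsc5, which encodes its UBX domain subunit, rose to 121 ± 3.92 CPM in the rad24 deletion, against 82.1 ± 2.01 CPM in wild type (log2 fold change 0.56, SE 0.037, edgeR adjusted p = 8.26e-09), and dsc2 rose to 130 ± 6.55 CPM, against 97.7 ± 4.78 CPM (0.41). The log2 fold changes of dsc3, dsc1 and dsc4 were 0.28, 0.18 and 0.12 (0.44, 0.35 and 0.28 with scaling by library size only), and the call of dsc4 was lost with DESeq2 (adjusted p = 0.128) and without rad24 deletion replicate 3 (adjusted p = 0.0503). The gene of the protease Rbd2 had a log2 fold change of 0.34. On the turnover side ofd1 fell to 163 ± 1.21 CPM in the rad24 deletion, against 214 ± 12.3 CPM in wild type (log2 fold change -0.40, edgeR adjusted p = 5.61e-07), and the gene of its inhibitor, nro1, had a log2 fold change of -0.20. Scaled by library size only, ofd1 had -0.23, and the call of nro1 was lost (log2 fold change -0.033, adjusted p = 0.418). The gene of the related factor Sre2 and the INSIG domain gene ins1 were not called (log2 fold changes 0.066 and -0.035). Under that scaling both were called higher (0.23 and 0.13).

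At the start of the route, hmg1 (SPCC162.09c) encodes HMG-CoA reductase, which makes mevalonate and is the classic control point of sterol synthesis. Its levels were 239, 243 and 231 CPM in the rad24 deletion libraries, against 318, 335 and 306 CPM in wild type. The highest rad24 deletion library lay well under the lowest wild type library, and hmg1 fell by 0.43 on the log2 scale (SE 0.039, edgeR adjusted p = 2.70e-07). With scaling by library size only it fell by 0.26. Of the 10 genes that lead from acetyl-CoA to squalene, 6 were lower, 1 higher and 3 not called. Across all tested genes 37.4% were lower and 40.9% higher. Among the lower genes of this stretch, the thiolase gene erg10 had a log2 fold change of -0.29. The mevalonate decarboxylase gene mvd1 had -0.25 and the HMG-CoA synthase gene hcs1 -0.23. Library size scaling alone gave erg10 -0.13 and mvd1 -0.088 (adjusted p = 0.0470), and the call of hcs1 was lost (log2 fold change -0.064, adjusted p = 0.141). The gene of squalene synthase, the last enzyme of this stretch, is erg9. Its mRNA stood at 400 ± 3.05 CPM in the rad24 deletion and 412 ± 19.9 CPM in wild type (log2 fold change -0.043, edgeR adjusted p = 0.335). Scaled by library size only, erg9 was called higher (log2 fold change 0.12, edgeR adjusted p = 0.00959).

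The gene of the next enzyme showed the greatest change of the 10 members. Squalene monooxygenase, encoded by erg1 (SPBC713.12), puts an oxygen atom on squalene and is the first step of the route that needs molecular oxygen. Its mRNA was at 360, 341 and 350 CPM in the rad24 deletion libraries, against 1097, 1327 and 1203 CPM in wild type. The SD of the wild type libraries was 9.54% of their mean, and still the lowest of them was about 3 times the highest rad24 deletion library. The fall was 3.45-fold (log2 fold change -1.79, SE 0.061, edgeR adjusted p = 8.74e-12), and it ranged from -1.86 to -1.62 on the log2 scale over 14 alternatives. Of 4985 tested protein-coding genes 54 had a lower log2 fold change, or 1.08%. In raw counts erg1 was lower even though the rad24 deletion libraries were deeper, with 8204, 6969 and 7512 counts in the rad24 deletion against 15855, 14220 and 16808 in wild type.

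The enzymes on either side of squalene monooxygenase give a scale within each library. Since gene lengths differ, only the change of such a ratio between genotypes is read here. The ratio of erg1 to erg9 counts was 0.906, 0.846 and 0.877 in the rad24 deletion, against 2.77, 3.06 and 2.96 in wild type. The ratio of erg1 to erg7, which encodes the lanosterol synthase of the following step, was 2.57, 2.47 and 2.53 in the rad24 deletion, against 5.74, 6.82 and 6.36 in wild type. Both ratios were lower in each rad24 deletion library than in each wild type library, so the messages for 3 consecutive steps did not change by the same amount. These pairs were chosen after the values were seen and are given with no test.

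**Figure D2:**
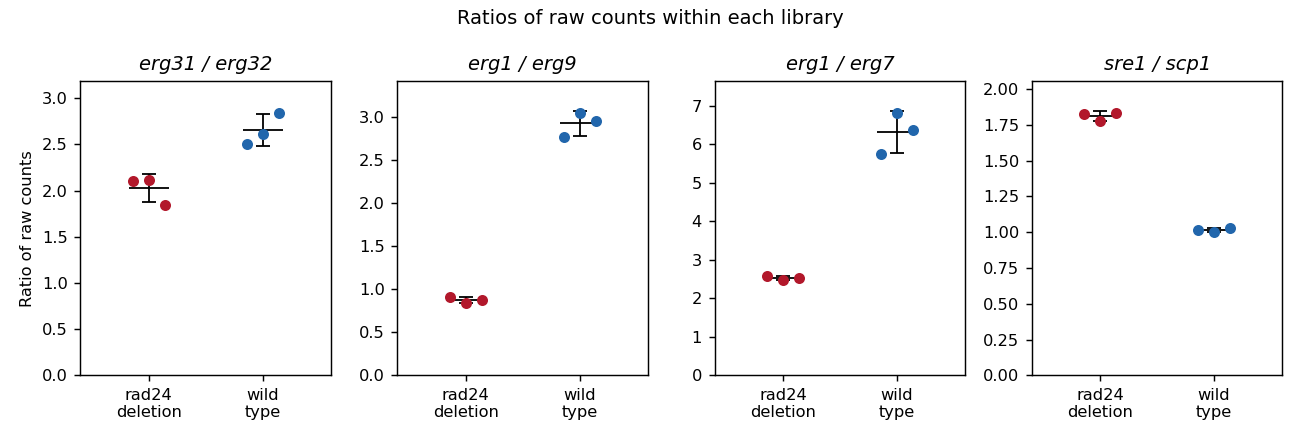
Ratios of raw counts of gene pairs within each library, with the rad24 deletion (red) left of wild type (blue), and each axis starting at 0. Points are libraries, and black marks are the mean and SD of 3 libraries. The 3 ratios with a sterol enzyme on top are lower in the rad24 deletion, and sre1 over scp1 is higher.

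The genes of the later oxygen-dependent enzymes among the members, erg11, erg25, erg31 and erg32, fell by smaller amounts. The sterol 14-demethylase gene erg11 (SPAC13A11.02c), which encodes the cytochrome P450 that azole antifungals inhibit, was at 863, 819 and 848 CPM in the rad24 deletion libraries, against 1389, 1426 and 1460 CPM in wild type. The 2 ranges were far apart, and erg11 fell by 0.76 on the log2 scale (SE 0.043, edgeR adjusted p = 1.79e-09). The C-4 methylsterol oxidase gene erg25 (SPAC630.08c) was at 1239, 1174 and 1213 CPM in the rad24 deletion, against 1500, 1610 and 1499 CPM in wild type. Its fall of 0.35 on the log2 scale (SE 0.046, edgeR adjusted p = 1.09e-05) was the smallest among the 6 members that were lower, and 45.4% of tested protein-coding genes had a larger absolute log2 fold change. With scaling by library size only erg25 fell by 0.18, and the call held (adjusted p = 0.000821).

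The C-5 sterol desaturase is encoded by a pair of paralogs, erg31 (SPAC1687.16c) and erg32 (SPBC27B12.03c), which introduce a double bond late in the route. Levels of erg31 were 163, 154 and 148 CPM in the rad24 deletion libraries, against 294, 290 and 319 CPM in wild type (log2 fold change -0.96, SE 0.045, edgeR adjusted p = 2.33e-10). Levels of erg32 were 77.4, 72.7 and 80.2 CPM in the rad24 deletion, against 117, 111 and 112 CPM in wild type (log2 fold change -0.56, SE 0.041, edgeR adjusted p = 2.45e-08). Both paralogs were lower in each rad24 deletion library than in any wild type library. Their count ratio, erg31 over erg32, was 2.11, 2.11 and 1.85 in the rad24 deletion, against 2.51, 2.61 and 2.84 in wild type. The log2 ratio was 1.01 ± 0.11 in the rad24 deletion and 1.41 ± 0.092 in wild type, a difference of -0.39 (exact permutation test, two-sided, p = 0.1, the smallest this design can give). The ratios of the groups did not overlap, and this exact permutation test with 3 libraries against 3 cannot reach 0.05. Reads shared between the paralogs were not measured here.

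Along the whole route from acetyl-CoA to ergosterol, 15 of 24 genes were lower, 6 higher and 3 not called, with a median log2 fold change of -0.21. Without the members 18 route genes remained, 9 lower, 6 higher and 3 not called. Their median log2 fold change was -0.071, so much of the lower median of the route came from the members. Of all tested genes 37.4% were lower and 40.9% higher. With scaling by library size only 10 of the 24 were lower and 9 higher, where higher genes made up 67.0% of all calls, against 52.3% with TMM. Within the stretch after squalene all 14 genes were called, 9 lower and 5 higher. Besides the members, the methyltransferase gene erg6 fell to 593 ± 9.08 CPM in the rad24 deletion, against 850.2 ± 8.24 CPM in wild type (log2 fold change -0.52, edgeR adjusted p = 2.48e-08). The cyclase gene erg7 fell to 139 ± 1.19 CPM, against 192 ± 2.76 CPM (log2 fold change -0.47, and -0.30 with scaling by library size only). Genes on the higher side were erg28, for a scaffold protein that holds the C-4 demethylation enzymes together in budding yeast (0.34), erg4 of the last reductase step (0.26), erg26 (0.24) and erg27 (0.18) of C-4 demethylation, and erg5 of the C-22 desaturase (0.10). Scaled by library size only, erg4, erg26, erg27 and erg5 had 0.42, 0.40, 0.35 and 0.27. By edgeR calls the C-4 demethylation step was mixed, since its oxidase gene erg25 was lower and its dehydrogenase, reductase and scaffold genes were higher. In the authors' deposited DESeq2 table erg28 was not called (adjusted p = 0.137). Some other route genes called by edgeR, on either side, also missed there. The call of erg5 was lost in 5 of 14 alternatives: with RLE factors (adjusted p = 0.0897), without rad24 deletion replicate 1 (0.120) or 2 (0.0789), and without wild type replicate 1 (0.0869) or 3 (0.0859). Among 4 genes of helpers, which supply electrons to the P450 enzymes, regulate them or esterify sterols, 1 was called, the acyltransferase gene are2 (log2 fold change -0.44, and -0.27 with scaling by library size only, edgeR adjusted p = 7.42e-07).

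**Figure D3:**
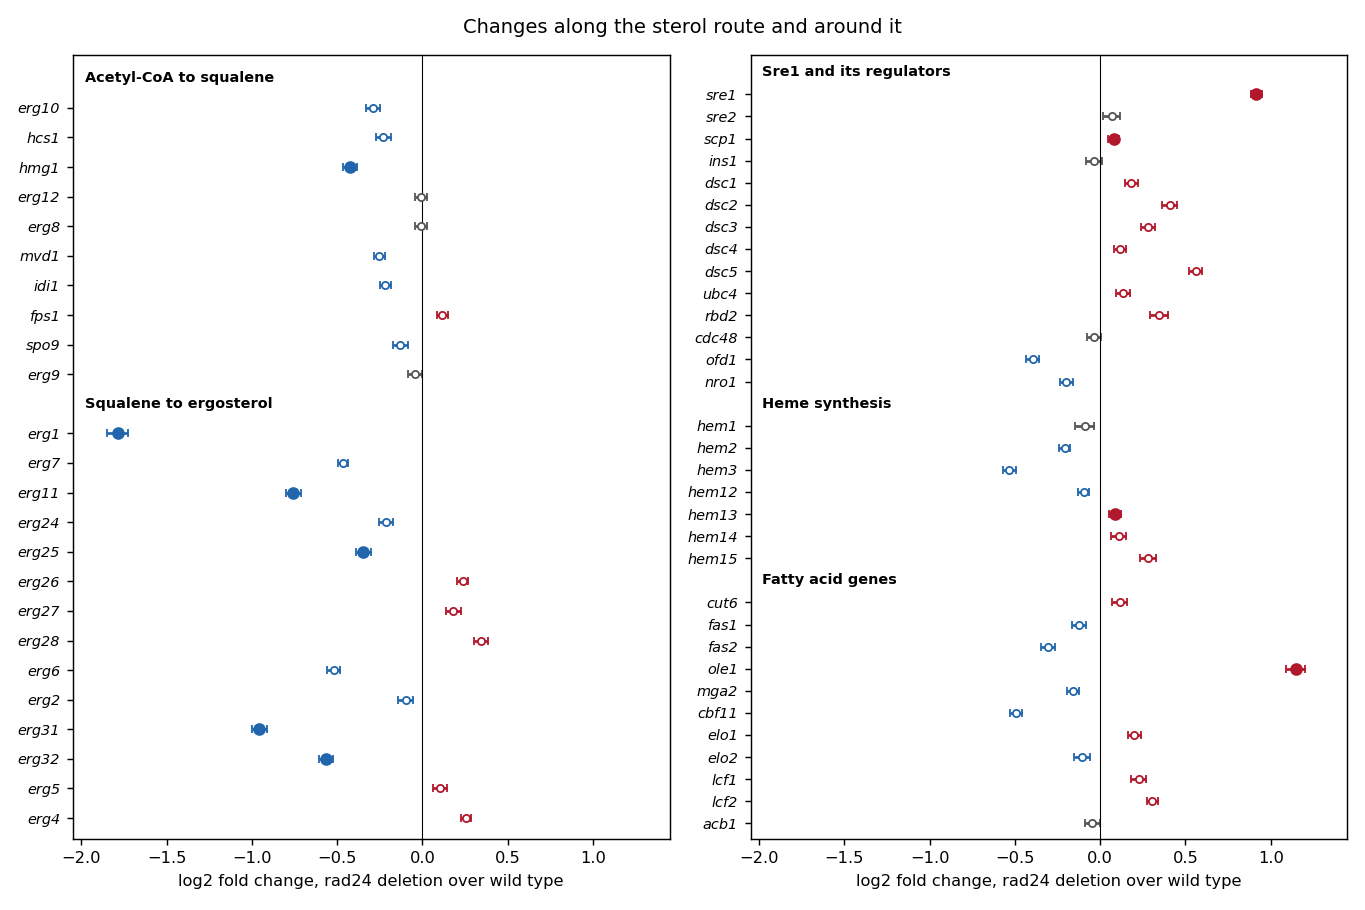
Log2 fold change, rad24 deletion over wild type, of each gene along the sterol route (left, in rough order of the steps) and of the Sre1, heme and fatty acid lists (right), with bars for the SE of the edgeR fit. Filled points are members and open points other genes, in red where called higher, blue where called lower and grey where not called. The value farthest to the left is erg1 at -1.79 and the value farthest to the right is ole1 at 1.15.

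Enzymes that consume molecular oxygen make up 7 of the 10 members, and of these 5 were lower and 2 higher. On the sterol route alone 5 of 6 such genes were lower, all 5 of them members, and the exception was erg5, which is not a member. The other 8 genes after squalene, none of them members, divided into 4 lower and 4 higher. Oxygen use and membership can thus not be told apart in this contrast. For comparison, 37.4% of all tested genes were lower and 40.9% higher. The call of hem13, on the higher side, was lost in 7 of 14 alternatives, and that of erg5 in 5. In the authors' deposited DESeq2 table hem13 was not called (adjusted p = 0.338). Among the other 8 genes calls on both sides were missing there, with erg28 (adjusted p = 0.137) on the higher side. The grouping by oxygen use was made after the values were seen and carries no test.

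Outside sterol synthesis, hem13 (SPAC222.11) encodes coproporphyrinogen oxidase, an oxygen-dependent enzyme of heme synthesis, and heme is the cofactor of the P450 enzymes above. Its levels were 303, 308 and 303 CPM in the rad24 deletion libraries, against 277, 286 and 296 CPM in wild type. The groups did not overlap but were a few CPM apart at their nearest libraries, and the log2 fold change was 0.087 (SE 0.036, edgeR adjusted p = 0.0383). This call was lost in 7 of 14 alternatives, with adjusted p = 0.109 with RLE factors, 0.171 with DESeq2, 0.0698, 0.119 and 0.0631 without rad24 deletion replicates 1, 2 and 3, and 0.191 and 0.0527 without wild type replicates 1 and 2. The log2 fold change of hem13 was 0.057 without wild type replicate 1 and 0.25 with scaling by library size only. In the rest of the heme list 2 of 6 genes were higher, 3 lower and 1 not called, beside 40.9% higher and 37.4% lower of all tested genes. The porphobilinogen deaminase gene hem3 fell by 0.53 on the log2 scale and the ferrochelatase gene hem15 rose by 0.28 (0.44 with scaling by library size only). In the authors' deposited DESeq2 table hem15 was not called (adjusted p = 0.231). The porphobilinogen synthase gene hem2 had a log2 fold change of -0.21, a call lost with scaling by library size only (log2 fold change -0.044, adjusted p = 0.245).

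The stearoyl-CoA desaturase gene ole1 (SPCC1281.06c) encodes the enzyme that makes oleic acid and other unsaturated fatty acids, also with oxygen. It was at 3600, 3541 and 3466 CPM in the rad24 deletion libraries, against 1661, 1655 and 1473 CPM in wild type. Each rad24 deletion library was more than 2 times as high as each wild type library. The rise was 2.21-fold (log2 fold change 1.15, SE 0.055, edgeR adjusted p = 3.19e-10), and 4.19% of tested protein-coding genes had a higher one. Of the 10 other fatty acid genes 4 were higher, 5 lower and 1 not called, with log2 fold changes between -0.49 and 0.31. Across all tested genes 40.9% were higher and 37.4% lower. The gene of the transcription factor Cbf11, a regulator of lipid metabolism genes, fell to 152 ± 5.50 CPM in the rad24 deletion, against 215 ± 0.979 CPM in wild type (log2 fold change -0.49, edgeR adjusted p = 1.18e-08). The gene of Mga2, a coactivator known to act on ole1, had a log2 fold change of -0.16, the fatty acid synthase gene fas2 -0.31 and the acyl-CoA ligase gene lcf2 0.31. Library size alone gave fas2 -0.14 and lcf2 0.47, and the call of mga2 was lost with a change of sign (log2 fold change 0.0043, adjusted p = 0.911), as it was with upper quartile factors without one (-0.064, adjusted p = 0.0873).

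Because ole1 is abundant and rose, the 10 members together took more of each library in the rad24 deletion, with 0.768%, 0.752% and 0.765% of all counts, against 0.661%, 0.684% and 0.671% in wild type. Without ole1 the order turned round, with 0.391%, 0.379% and 0.393% in the rad24 deletion against 0.503%, 0.531% and 0.529% in wild type. The 24 genes of the sterol route took 0.845%, 0.829% and 0.853% of counts in the rad24 deletion, against 0.956%, 0.986% and 0.992% in wild type. With erg1 left out the shares were 0.808%, 0.793% and 0.815% against 0.853%, 0.863% and 0.876%, so the groups still did not overlap. These shares still held the members hmg1, erg11, erg25, erg31 and erg32. They therefore do not show a fall in the share of the route genes outside the members.

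**Figure D4:**
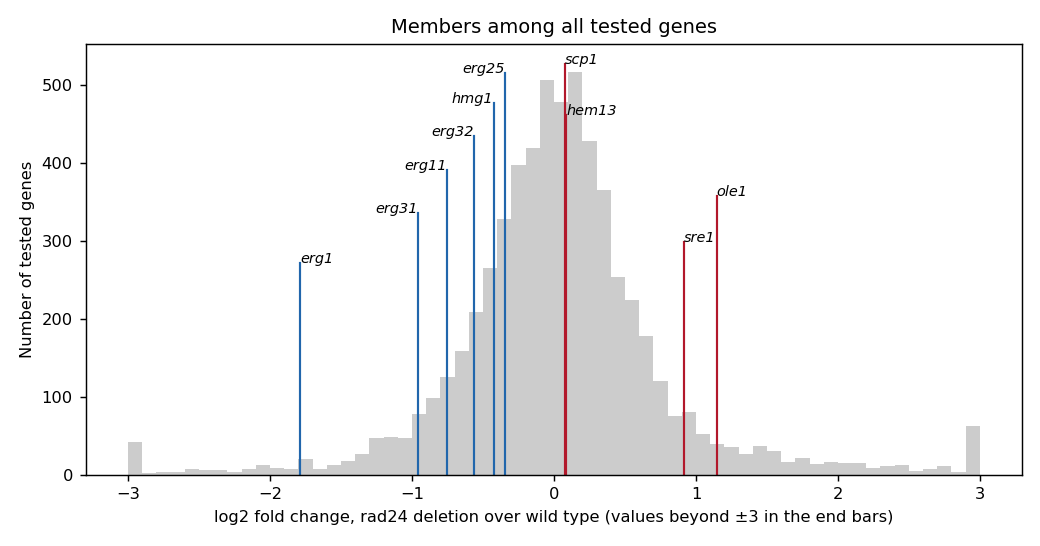
Histogram of the log2 fold changes, rad24 deletion over wild type, of the 6084 tested genes, with values beyond the axis gathered in the end bars. Vertical lines mark the 10 members (red, higher; blue, lower), and their heights only keep the names apart. The line of erg1 stands in the left tail, those of sre1 and ole1 in the right tail, and those of scp1 and hem13 near the centre.

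The authors' deposited table, made with DESeq2, gave log2 fold changes within 0.0011 of those above for all 10 members. Its standard errors were larger for 9 of them, such as 0.18 for ole1 and 0.11 for hmg1, and smaller for erg25. There an adjusted p below 0.05 was given for 8 members, 2 higher and 6 lower, and for 59.0% of all genes with a value, 30.0% higher and 29.0% lower. The 2 members that missed were scp1 (adjusted p = 0.0721) and hem13 (adjusted p = 0.338). Among the named list genes called by edgeR, dsc4 (adjusted p = 0.113), erg28 (0.137), hem15 (0.231) and mfm3 (0.188) also missed there.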

How the data were processed

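Reads had been processed with the genome build ASM294v2 and with DESeq2, HTSeq 0.10.0, HISAT2 2.1.0 and SAMtools, per the submitters' processing notes. The strand setting of the counting was not given in the sources used here. The authors deposited raw counts per gene and library, analysed here, and a table of their comparison with log2 fold changes, p-values, a test score and mean normalized counts (a signal per gene), per the file headers. Genes were tested in edgeR 4.0.16 (R 4.3.3, limma 3.58.1) by the quasi-likelihood test with genotype as the only term, filterByExpr (902 genes left out, 6084 tested), TMM factors and Benjamini-Hochberg adjustment over all tested genes at 0.05. CPM are the deposited counts over TMM-scaled library sizes. SE is the absolute log2 fold change divided by the square root of F. The steps were run on simulated counts with few changed genes, in equal numbers up and down. Many more genes were called in these data, so that run did not test the scaling in this setting. The second row of 1 repeated identifier held no count and was dropped.

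The members and gene lists were chosen with earlier results of these data known. Named genes are the members and up to 3 further called genes of each list with the largest change. The other genes (rbd2, nro1, sre2, ins1, dsc1, dsc3, dsc4, erg9, erg4, erg5, erg26, erg27, mga2, mfm3, sxa1, mam1, sxa2) were chosen after their values were seen. Of the list names 68 matched by common name, 2 by an older one and 2 not at all, and 2 (ups1, ppt1) matched genes of another function and were left out.

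Alternatives were RLE, upper quartile and library size scaling, 2 other filters, DESeq2 1.42.0, limma-voom, the replicate block and each library left out. The annotation used for neighbours is ASM294v3, and no sequence was read from it.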

Additional observations from a re-analysis of the deposited data

How the results depend on the processing

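The 6 members that were lower and the rises of sre1 and ole1 were called in the same direction under all 14 alternatives. The number of members called higher, 4 as reported, was 2 with RLE factors and 2 with DESeq2, and 2 to 3 with 1 library left out, the lost calls being those of scp1 and hem13. Over the members, the named genes of the lists and mating markers and the genes of like profile, 717 of the recomputed values kept direction and call, 29 lost the call, 2 gained it and 6 changed sign. The genes next to or overlapping the members were not recomputed, nor were mam1 and sxa2. The changes of sign were for erg9, with log2 fold changes of 0.053 (upper quartile factors) and 0.12 (library size only, adjusted p = 0.00959), ins1, with 0.060 and 0.13 under the same scalings, mga2, with 0.0043 (library size only), and sre2, with -0.013 without wild type replicate 3. Of these only mga2 was called as reported. With 1 library left out sre2 ran from -0.013 to 0.11, and its gained calls were with upper quartile factors (0.16) and library size only (0.23). Scaling moved the balance: higher genes made up 52.3% of all calls with TMM, 61.1% with upper quartile factors and 67.0% with library size only, where the median of all genes was 0.12 and 0.19. The replicate numbers showed no clear pairing of the libraries (correlations of deviations 0.0041, 0.012 and 0.13 for equal numbers, and not every library correlated best with its own number). With 3 libraries per genotype this check cannot exclude pairing. With the replicate block 2487 genes were higher and 2266 lower, against 2491 and 2275 without it, 4 members were higher and 6 lower, and the paired difference of the erg31 to erg32 log2 ratio was -0.39 (exact sign-flip permutation test, p = 0.25, its smallest possible). With 1 library left out that difference ran from -0.43 to -0.33. Each member had at least 1190 counts in every library.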

Other observations

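Profiles most like those of sre1 and erg1 were sought among 4831 other protein-coding genes with a mean of at least 5 CPM, by the root mean square difference of centred log2 CPM over the 6 libraries. Nearest to sre1 were dot2, an ESCRT II subunit gene (difference 0.0232, log2 fold change 0.94), SPBC14C8.11c (0.0245, log2 fold change 0.97) and mug123 (0.0250, log2 fold change 0.90). Nearest to erg1 were the O-methyltransferase gene SPBC119.03 (0.0350, log2 fold change -1.79), the predicted oxoadipate and oxoglutarate carrier gene SPAC328.09 (0.0548, log2 fold change -1.82) and lsb1 (0.0613, log2 fold change -1.70). With 2 genotypes this likeness mostly reflects an equal fold change.

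The protein-coding genes next to the members in the ASM294v3 annotation numbered 20. Of these 14 were called by edgeR, where 78.3% of all tested genes were, and 8 of the 14 had the direction of the member. Their log2 fold changes ran from -0.43 to 1.37. Both neighbours of sre1 were not called, prp38 at 0.073 (edgeR adjusted p = 0.402) and SPBC19C2.10 at 0.011 (adjusted p = 0.832). Beside erg1, psy2 had a log2 fold change of -0.19 and SPBC713.14c of 0.78. The only neighbour past 2-fold was ppk33, a kinase gene beside hmg1 that rose where hmg1 fell (1.37).

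In the same annotation 8 members are overlapped by another gene, 3 of them by a gene of the count table. The lncRNA SPNCRNA.1205 overlaps hmg1 on the same strand (log2 fold change 2.92, edgeR adjusted p = 0.000121). Its value rests on few reads, with 25, 27 and 26 counts in the rad24 deletion libraries and 2, 4 and 0 in wild type. By comparison hmg1 had at least 3585 counts in each library. On the opposite strand mis19 overlaps erg32 (log2 fold change 0.45) and SPAC222.17 overlaps hem13 (0.62). How reads in the shared stretches were counted is not stated in the labels, so their part in these values was not tested.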
